A study of Mus musculus with 24 samples.

Results

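The secreted and membrane-bound cues that steer growing axons, and the receptors that read them, are described here as 1 set of 68 genes. Members were picked by gene symbol, by a rule that uses no measured value, though the set was proposed with earlier results of these data known. They are 20 semaphorins, 8 ephrins, 3 Slits and 3 netrins on the ligand side, and 9 plexins, 2 neuropilins, 14 Eph receptors, 4 Robo receptors, Dcc and 4 Unc5 receptors on the receptor side. All 68 were among the 17501 genes listed for mouse embryonic stem cells (mESC), and 66 were among the 16024 genes listed for neural progenitor cells (NPC). Epha6 and Epha8 were listed for mESC only. After removal of genes with low values (a value of at least 1 in at least 2 libraries was required), 60 of 13916 tested genes in mESC and 63 of 13206 tested genes in NPC belonged to the set.

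The libraries came from cells that differ at Htt, the gene whose expanded CAG repeat causes Huntington's disease, and the title of the series asks how repeat length relates to splicing. Total RNA from 24 samples was sequenced as 75 bp read pairs, with 2 biological samples for each of 6 genotypes in each cell type. The genotypes were Htt wild type (WT), Htt knockout (KO) and 4 knock-in lines with an allele of 20 (Q20), 50 (Q50), 92 (Q92) or 111 (Q111) CAG repeats. Per the growth protocol the knock-in lines are heterozygous, and that text gives 89 repeats for the line titled Q92. Each repeat length is represented by 1 line, so repeat length and line cannot be told apart. The mESC were kept with LIF on a feeder layer of mouse embryonic fibroblasts, and the NPC were derived from mESC by 7 days in N2B27 medium and then expanded with FGF and EGF on laminin. No compound was applied to any group. Where samples of a group share a culture history, p-values measure only the spread between these samples, which may be technical.

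In this system a growth cone reads cues laid down by other cells. Secreted class 3 semaphorins bind neuropilins, which signal through plexins, whereas membrane semaphorins bind plexins directly. Ephrins are held on the cell surface and activate Eph receptor tyrosine kinases on the neighbouring cell, with signalling in both directions. Slits repel axons through Robo receptors, for example at the ventral midline of the neural tube, and netrins attract axons through Dcc or repel them when Unc5 receptors take part. The same molecules act in adhesion, tissue boundaries and the migration of neural progenitors, long before axons are wired.

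Of the genes that stood apart most in the Q20 progenitors, Epha1 and the adjacent pair Robo3 and Robo4 had an upstream window free of annotated exons, and these windows are shown so that the starts of the 3 genes can be compared. Epha1 lies on the minus strand of chromosome 6 (42358487 to 42373268), where it overlaps Zyx on the opposite strand. Robo4 is found on chromosome 9 (37401897 to 37415115, plus strand), and its end is 553 bp from the end of Robo3, on the minus strand (37415669 to 37433246), so the genes run towards each other and their starts lie far apart. These gene positions are from GENCODE M21. The sequences are from RefSeq on build GRCm38.p6, run 5′ to 3′ on the gene's own strand and span 150 bases, from 250 to 101 bases before the RefSeq start, which need not be the GENCODE start. Capitals mark the GC box GGGCGG, the core of Sp1-type binding sites, searched on both strands.
Epha1, chr6:42373369-42373518, minus strand: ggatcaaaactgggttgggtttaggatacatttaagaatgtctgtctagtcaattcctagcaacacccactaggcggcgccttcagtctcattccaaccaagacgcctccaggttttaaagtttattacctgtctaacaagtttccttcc
Robo3, chr9:37433276-37433425, minus strand: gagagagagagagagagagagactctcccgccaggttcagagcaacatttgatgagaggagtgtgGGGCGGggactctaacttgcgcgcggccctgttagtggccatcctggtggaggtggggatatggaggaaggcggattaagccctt
Robo4, chr9:37401722-37401871, plus strand: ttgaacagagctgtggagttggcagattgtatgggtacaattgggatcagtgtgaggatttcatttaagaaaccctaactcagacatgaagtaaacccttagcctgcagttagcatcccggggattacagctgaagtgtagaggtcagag
The Robo3 window held 1 GGGCGG and 6 CG dinucleotides at 58.0% GC. The Epha1 window held no GGGCGG and 3 CG at 44.0% GC, and the Robo4 window none and 1 CG at 45.3% GC. Over all 32851 RefSeq windows of this length, 16.7% held GGGCGG and 7.29% held TATAAA on either strand, with a median of 3 CG. Of the 58 guidance genes with an entry, 20 (34.5%) held GGGCGG and 0 held TATAAA, with a median of 8 CG, and the other 10 had no entry. These are letter matches in 1 window of each gene and say nothing of which factor binds there.

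Values are the authors' CPM (read counts set relative to the library's total), scaled between libraries and called scaled CPM here. Library totals were 58546211 to 81502284 reads in mESC and 48525333 to 118038952 in NPC. The tables of the cell types were scaled separately, so levels are set side by side across them but not tested. Htt itself did not separate the knockout cleanly: in NPC it stood at 100.1 and 94.9 scaled CPM in KO and at 137 and 177 in WT (log2 change -0.67, limma adjusted p = 0.0673). In mESC the library labelled KO 1 held 139 scaled CPM of Htt, above both WT libraries (124 and 113), and the library labelled KO 2 held 68.5. The labels do not give the deleted part of Htt, and reads outside it would not check the label. Of the markers set for each cell type, summed pluripotency markers reached 2058 to 3909 scaled CPM in mESC, and summed neural progenitor markers 4044 to 9410 in NPC. In mESC the largest principal component (31% of the variance) separated the replicate 1 from the replicate 2 libraries in every genotype. In NPC the WT 1 library stood apart from WT 2 on the largest component (29.8%), at -46.3 and 17.6, which bears on every comparison with WT. In such bulk libraries fewer cells of a type and less RNA per cell cannot be told apart.

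Some families were led by the same gene in stem cells and progenitors and others by different genes, as read from levels per kb of exon, averaged over the 12 libraries of a cell type. Among Eph receptors, Epha2, a receptor abundant on pluripotent cells, led in mESC with 47.9 scaled CPM per kb, 57.2% of the family's sum, followed by Epha4 with 12.8. In NPC Ephb4 and Epha4 led with 12.0 and 11.4, or 26.9% and 25.6%, and Epha2 stood at 1.61. The group means of Epha4 in NPC ran from 1.16 in Q111 to 30.7 in WT, so its rank depended on the genotype.

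Plexins, the signalling receptors for semaphorins, were led by Plxnb2 in NPC, at 51.5 scaled CPM per kb, followed by Plxnb1 (17.0). In mESC Plxnb2 and Plxna1 were level at 11.5 and 11.5, with Plxna1 the higher in KO, Q20 and Q111. Of the neuropilins, Nrp2 made up 95.2% of the sum in mESC at 5.67, against 0.286 for Nrp1, while in NPC Nrp2 and Nrp1 were near each other at 3.91 and 3.79. The semaphorins were led in mESC by Sema4b (12.3) and Sema3e (3.34), and in NPC by Sema6d (21.7) and Sema4b (20.4), both membrane-bound, with Sema4b ahead in KO and Q92. Efna4 was the leading ephrin in each, at 5.998 and 9.51, followed by Efna3 in mESC (3.26) and Efnb1 in NPC (3.63).

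Netrin 1 (Ntn1) had the highest mean of the netrins in both, at 4.67 scaled CPM per kb in mESC and 27.5 in NPC, where Ntn4, a laminin-related netrin of basement membranes, followed with 20.3. The order turned in the KO and Q50 progenitors, where Ntn4 made up 58.5% and 60.3% of the family's sum. Ntn5 was second in mESC at 0.251. Dcc, the attractive netrin receptor, averaged 0.0625 in mESC and 1.96 in NPC. Unc5b led its family in both, at 5.30 (94.6% of the sum) and 2.33, followed by Unc5a (0.233) in mESC and Unc5c (0.584) in NPC. Slit levels were low throughout: Slit3 led in mESC with 0.830 and Slit2 followed with 0.174, while Slit1 led in NPC with 2.64 (78.6%) and Slit3 followed with 0.480. That order varied with the genotype, since Slit2 led in Q111 (56.8% of the sum) and Slit3 had 2.53 scaled CPM per kb in Q20 and 35.0% of the sum there. Robo4, known from blood vessels, had the highest mean in mESC with 2.53, then Robo1 (2.09), but this order held in the replicate 2 libraries (6 of 6) and in 0 of 6 replicate 1 libraries, and Robo1 (8.08) and Robo2 (7.42) led in NPC.

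**Figure D1:**
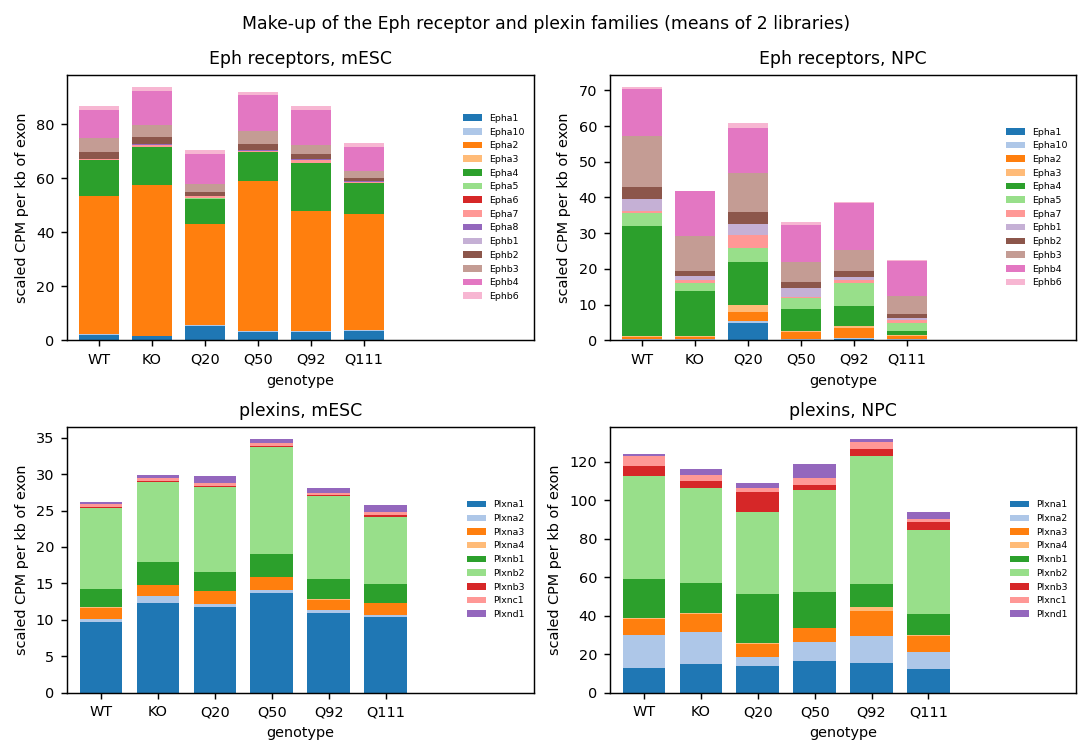
Summed level per kb of exon (vertical axis, scaled CPM per kb) of the Eph receptors and of the plexins, by genotype mean of 2 libraries in mESC and NPC, with each colour 1 gene. Epha2 fills most of the Eph bars in mESC, and in NPC the Eph sum runs from 22.5 in Q111 to 70.9 in WT, while the plexin sum stays between 93.6 and 132.

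In the progenitors the Q20 line stood apart from WT in much of this set. Of 63 guidance genes tested, 24 were higher and 1 was lower in Q20, against 14.5% of all genes tested (9.97% higher and 4.57% lower; limma, Benjamini-Hochberg adjusted p under 0.05). The median log2 change was 0.42 over the guidance genes and -0.02 over all genes. Slits rose (3 of 3 tested), as did 3 of 4 Unc5 receptors, 2 of 4 Robo receptors, 8 of 18 semaphorins, 5 of 12 Eph receptors, 2 of 8 ephrins and 1 of 9 plexins, while no neuropilin, netrin or Dcc passed the test. Ligands and receptors were both represented, with 13 of 31 ligands and 11 of 32 receptors higher. Among these, Robo3, Robo4, Epha10, Sema4a and Slit3 passed the filter only through the Q20 libraries, so the filter favoured a call as higher in Q20.

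Among the Slits, Slit3 had 17.0 and 13.7 scaled CPM in the 2 Q20 libraries and 1.02 and 0.982 in WT. The other 4 genotypes held 0.132 to 0.588, so both Q20 libraries were above all others. The rise over WT was 15.4-fold (log2 change 3.02, SE 0.17, adjusted p = 1.26e-05). Slit1 stood at 26.4 and 22.1 in Q20 and 6.80 and 3.78 in WT (log2 change 2.04, SE 0.35, adjusted p = 0.00535). High Slit1 was not particular to Q20, since KO held 30.6 and 15.8 and Q92 held 30.3 and 41.6. Slit2 was at 16.9 and 13.5 in Q20 against 7.87 and 2.38 in WT, and this call (log2 change 1.56, SE 0.41, adjusted p = 0.04) was lost with edgeR on the recovered reads (adjusted p = 0.123).

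Of the Slit receptors, Robo3, which keeps commissural axons from responding to Slit before they cross the midline, had 10.3 and 8.22 scaled CPM in Q20 and 0.333 and 0.270 in WT, a 30.8-fold difference (log2 change 2.97, SE 0.21, adjusted p = 4e-05). The 4 other genotypes held 0.123 to 0.716. Its neighbour Robo4 showed the same order at a lower level, with 1.65 and 1.24 in Q20 and 0.0245 to 0.251 in all other libraries (Q20 against WT, log2 change 1.17, SE 0.12, adjusted p = 0.000271). Robo3 and Robo4 reached 1 scaled CPM in Q20 only and so passed the filter through those libraries alone. Their tests are therefore no independent support for a rise in Q20. Of the 5 pairs of guidance genes that follow each other within 100 kb on a chromosome, Robo3 and Robo4 lie closest. The strand setting of the counting is not given in the sources used here. Robo1 and Robo2, the main receptors in these cells, were not called: Robo1 stood at 193 and 184 in Q20 and 179.6 and 77.2 in WT, and Robo2 at 188 and 175 against 314 and 109, with the WT libraries apart from each other.

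Epha1 showed the largest log2 change of the set. It stood at 20.6 and 18.0 scaled CPM in Q20 and at 0.438 and 0.675 in WT, 34.7-fold higher (log2 change 3.71, SE 0.17, adjusted p = 5.32e-06). The remaining genotypes held 0.496 to 2.00, the highest of them in Q92, and none overlapped Q20. Epha7 (43.3 and 32.7 in Q20, 7.39 and 4.10 in WT; log2 change 2.56) and Epha3 (16.2 and 16.5 against 3.75 and 3.98; 1.84) also rose. Both are EphA receptors used in topographic mapping of axons. Epha10 and Ephb6, which lack an active kinase, rose by 1.36 and 1.32 on the log2 scale, with adjusted p = 0.000117 and 0.00121 from limma.

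Of the ephrin ligands, Efnb2, a ligand of EphB receptors, held 38.2 and 37.6 scaled CPM in Q20 and 8.50 and 7.73 in WT (log2 change 2.09, SE 0.40, adjusted p = 0.00872). It was as high in 1 of the Q50 and 1 of the Q111 libraries (33.9 and 43.6), so Q20 was not apart from every other line. Efna3 was the other ephrin called (log2 change 1.18). The most abundant ephrin, Efna4, was at 18.0 and 16.9 in Q20 and within the spread of WT (22.1 and 8.79).

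For the netrin side, Unc5c, a repulsive netrin receptor, had 42.0 and 39.7 scaled CPM in Q20 and 9.25 and 3.45 in WT (6.43-fold; log2 change 2.63, SE 0.44, adjusted p = 0.00486). All other libraries held 0.922 to 12.5, and the nearest was Q50 1. The call was lost in a fit of the Q20 and WT libraries alone (adjusted p = 0.0825). Unc5b rose from 6.85 and 12.6 to 21.7 and 25.1 (log2 change 1.24) and Unc5d by 0.65, the latter not with edgeR (adjusted p = 0.311). Dcc was at 43.6 and 41.5 in Q20 and 28.2 and 11.2 in WT, higher in both Q20 libraries but with WT libraries that differed from each other, and was not called (limma adjusted p = 0.0942). Ntn1, the ligand, stood at 95.7 and 152 in Q20 and 285 and 194 in WT (adjusted p = 0.0841).

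Semaphorins that rose were Sema3c, Sema3e and Sema3f of the secreted class, the membrane-bound Sema4a, Sema4d, Sema5a and Sema6b, and the GPI-anchored Sema7a, with log2 changes from 0.69 (Sema7a) to 1.90 (Sema4d). Sema6b, at 15.5 and 15.1 scaled CPM in Q20, was above all other libraries (2.22 to 5.76). The calls for Sema3f and Sema7a were lost with edgeR (adjusted p = 0.0613 and 0.0546). Among their receptors, Plxna2, a receptor for class 3 and class 6 semaphorins, was the only guidance gene that fell, with 79.3 and 88.3 in Q20, 242 and 342 in WT and at least 151 in every other library (3.49-fold lower; log2 change -1.77, SE 0.20, adjusted p = 0.000561). Plxnb3 rose by 1.09, a call lost with edgeR (adjusted p = 0.0613).

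**Figure D2:**
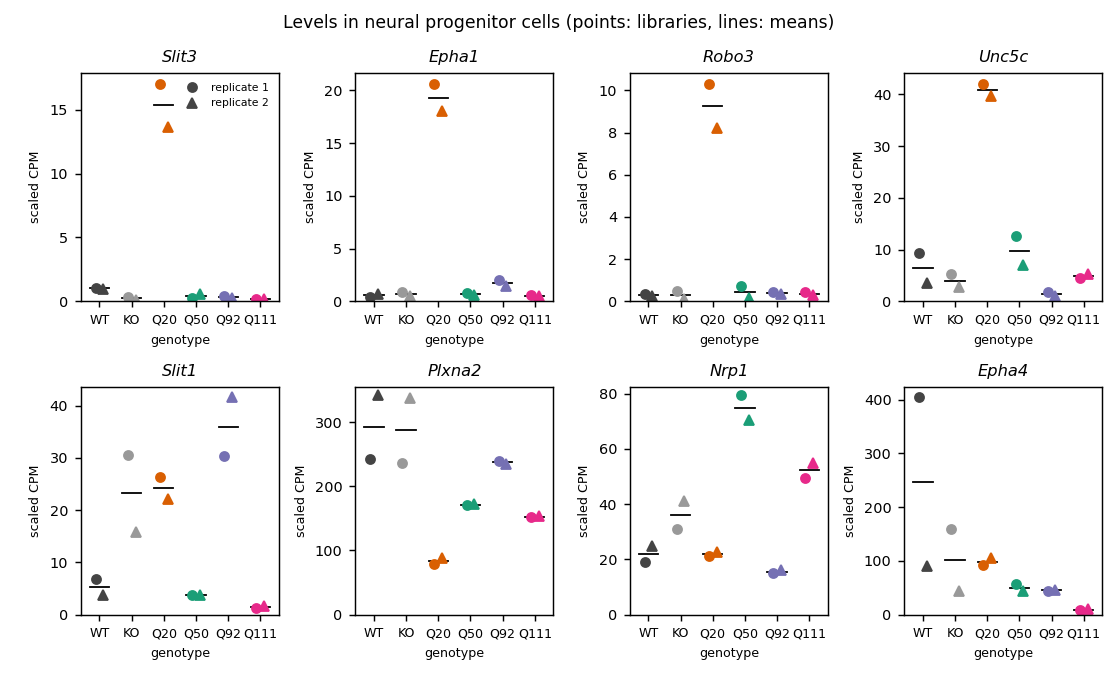
Scaled CPM (linear axis) of 8 guidance genes in each of the 12 NPC libraries, by genotype, with circles for replicate 1, triangles for replicate 2 and a line at the group mean. Slit3, Epha1, Robo3 and Unc5c are highest in both Q20 libraries and Plxna2 is lowest there, Nrp1 is highest in Q50, and Epha4 is lowest in Q111, at 7.55 and 11.2.

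The Q20 result was measured against 2 WT libraries that differed between themselves, so Q20 was also counted against every other library. Both Q20 libraries were above all 10 other NPC libraries for 19 of 63 guidance genes (30.2%), compared with 11.2% of all genes tested, and below all 10 for 4 (6.35%, against 8.03%). The 4 lowest were Ntn4, Plxna2, Plxna3 and Plxnb2. Robo3, Robo4, Epha10 and Sema4a reached 1 scaled CPM in Q20 only (at most 0.7155, 0.2514, 0.8315 and 0.8758 elsewhere). They passed the filter through Q20 alone, so their place among the 19 was fixed in advance. Slit3 also needed Q20 to pass, since its only other library above 1 stood at 1.016. The 11.2% holds genes of this kind too, and their part in either share was not counted. Fitted on the 4 libraries of Q20 and WT alone, 10 guidance genes were called, where 3.6% of all genes were. With a mean of at least 5 scaled CPM required, fewer genes were tested and 9 guidance genes were called. The shares of all genes called with this filter or with single libraries left out are not given here. Without the Q20 1 or without the Q20 2 library 16 were called.

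Markers of other cell types moved with the Q20 line. Summed pluripotency markers (5 of 8 listed in the NPC table) were at 106.3 to 107.6 scaled CPM in Q20, 9.11 to 9.98 in WT and 11.4 to 18.4 in KO. Pou5f1, a pluripotency factor, held most of the Q20 sum, with 90.0 and 87.4 in Q20 and 0 to 0.405 elsewhere. Of the 4 pluripotency markers tested, 2 were higher in Q20 than in WT (Nanog and Pou5f1) and 0 lower. Klf4 was called higher in Q92 and in Q111 than in Q20. Summed neural progenitor markers were lowest in Q20 (4044 to 4222, against 5438 to 9410 in the other libraries), with 0 of 10 higher and 1 lower than WT. Summed fibroblast markers were 247.6 to 310.1 in Q20, 37.8 to 46.9 in WT and 887.8 to 912.1 in Q50 (5 of 9 tested higher in Q20 than in WT). Summed astrocyte markers were 2306 to 2610 in Q20 and at most 2133 in the other libraries (2 of 7 higher than in WT), and early lineage markers 9.53 to 11.3 against at most 6.63 (2 of 3 tested higher, 1 lower). Oligodendrocyte lineage markers summed to 314.0 to 338.6 in Q20 and 140.8 to 332.4 in WT (3 of 6 higher, 1 lower). Of the 8 neuron markers tested, 4 were higher and 1 lower in Q20 than in WT, while their sum was 793.2 to 973.2 in Q20 and 1260 to 1637 in WT. Summed endothelial markers stayed at 1.75 to 4.49 and microglia markers at 0.204 to 0.564 over all NPC libraries, and no marker listed was at 0 in all of them. The part of these cell types in the guidance gene differences was not tested.

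**Figure D3:**
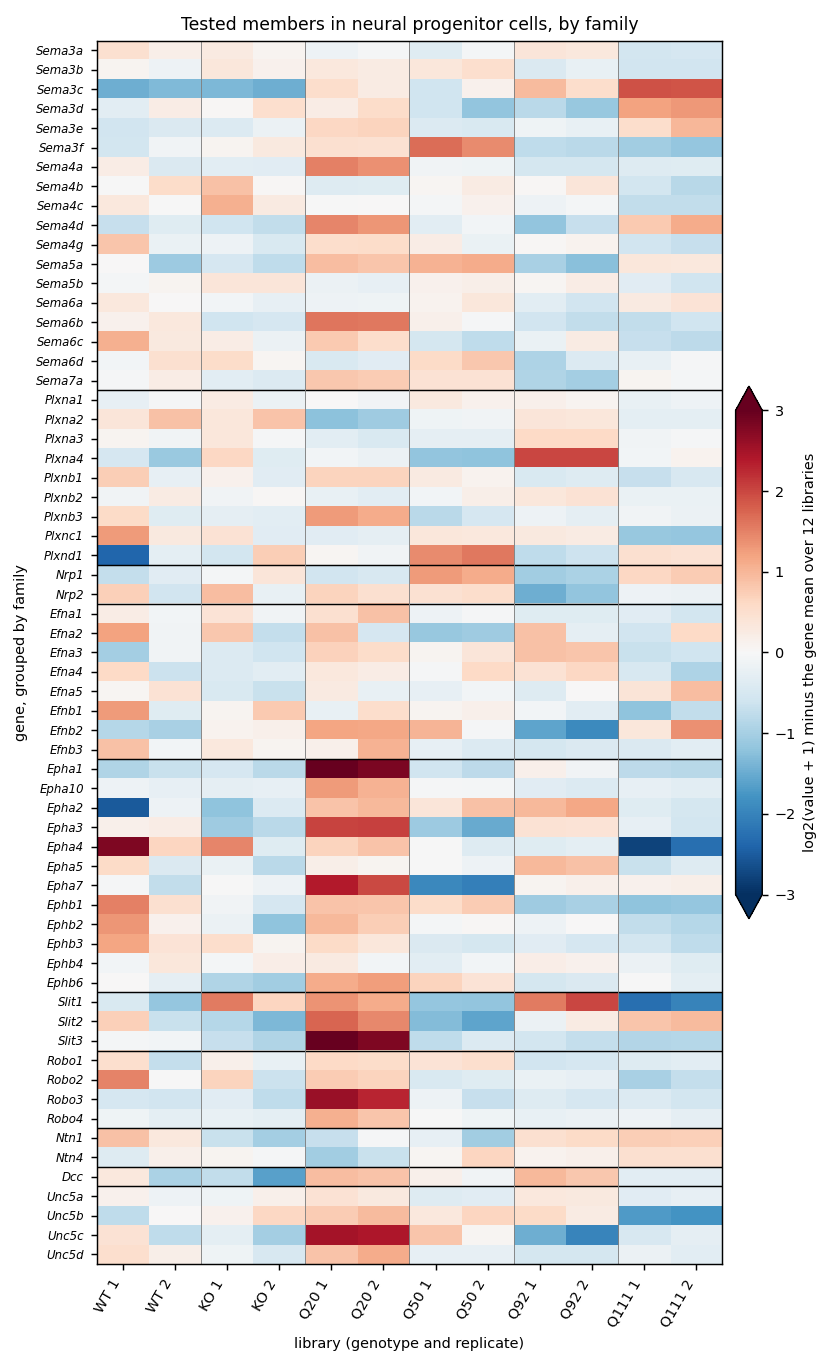
Heat map of the 63 guidance genes tested in NPC, grouped by family, over the 12 libraries, with colour for log2(scaled CPM + 1) minus the gene's mean and capped at 3 on either side. The Q20 columns hold the most high values in the Slit, Robo, Unc5 and Eph families, and the Q111 columns hold many of the low values.

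Compared with Q20, most guidance genes that differed in the longer-repeat progenitors were lower. Of 63 tested, 5 were higher and 22 lower in Q50 (18.8% of all genes called), 5 higher and 28 lower in Q92 (25.8%), and 5 higher and 28 lower in Q111 (28.3%). Over all genes, 8.05%, 9.88% and 12.2% were higher and 10.7%, 15.9% and 16.1% lower in these comparisons. The median log2 changes of the guidance genes were -0.54, -0.66 and -0.93, where those of all genes were 0, 0.06 and 0.03. The 3 comparisons share the Q20 libraries, as does Q20 against WT, so a gene that was high in Q20 can appear in all of them. Without Q20 1 the Q50 count was 17, and without Q111 2 the Q111 count was 20. With WT as the reference, 9 guidance genes differed in Q50 (5 higher, 4 lower; 6.62% of all genes, 4.54% higher and 2.08% lower), 12 in Q92 (6 and 6; 8.66%, 3.42% and 5.25%) and 22 in Q111 (6 and 16; 16.6%, 8.74% and 7.9%).

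Slit3 and Epha1, both high in Q20, were among the 4 largest falls named in all 3 comparisons. Slit3 was at 0.232 and 0.588 in Q50, 0.429 and 0.281 in Q92 and 0.149 and 0.156 in Q111, with log2 changes from Q20 of -3.54, -3.59 and -3.82 (adjusted p at most 6.25e-06). Epha1 fell by 3.61, 2.89 and 3.73. Against WT, Epha1 differed in Q92 only, by 0.81 upwards (adjusted p = 0.0264), and was not called in Q50 (0.10, adjusted p = 0.842) or Q111 (-0.02, adjusted p = 0.936). Slit3 was below WT in Q111 as well (-0.79, adjusted p = 0.0175), but was not called against WT in Q50 or Q92 (limma adjusted p = 0.123 and 0.0773).

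In each of the longer lines some guidance genes stood at the extreme of the 12 libraries. In Q50, Nrp1, a co-receptor for class 3 semaphorins and VEGF, reached 79.4 and 70.5 scaled CPM, above the other 10 libraries (14.9 to 55.0). It was higher than in Q20 (log2 change 1.72, SE 0.19, adjusted p = 0.000485) and than in WT (log2 change 1.73, adjusted p = 0.00133). Sema3f, a secreted ligand that acts mainly through Nrp2, was also highest in Q50, with 6.96 and 5.64 against 0.113 to 2.44 elsewhere. It was higher than Q20 (log2 change 1.08, SE 0.18, adjusted p = 0.00374) and WT (1.87, adjusted p = 0.000554). Sema3b, which lies 72.3 kb from Sema3f on chromosome 9, was highest in Q50 as well, at 1.72 and 2.07 against 0.439 to 1.71. Sema6d, the semaphorin with the highest mean per kb in NPC, stood at 324 and 379.9 in Q50 and 157 and 169 in Q20 (log2 change 1.10, SE 0.25, adjusted p = 0.0181), but WT at 203 and 302 lay between them and was not called against Q50 (adjusted p = 0.328). This call was lost when any 1 of the 4 libraries was left out. Epha7 and Epha3 were lowest in Q50, at 1.24 and 1.07 and at 0.986 and 0.482, with log2 changes from Q20 of -4.17 and -3.34 and from WT of -1.60 and -1.50 (adjusted p = 0.00862 and 0.00296). Both Q50 libraries were highest of all for 6 of 63 guidance genes (5.68% of all genes) and lowest for 6 (4.9%). Summed fibroblast markers were highest in Q50, at the values given above.

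In Q92, both libraries were highest of all for 6 guidance genes (9.52%, against 7.96% of all genes) and lowest for 9 (14.3%, against 8.12%), and A-type plexins were among the high ones. Plxna4 had 31.9 and 31.8 scaled CPM, and the other libraries held 2.56 to 11.6. It was above Q20 (log2 change 2.12, SE 0.32, adjusted p = 0.00204) and above WT (2.80, adjusted p = 0.00208), in a locus where antisense genes are annotated. Plxna3 held 103 and 103 against 49.5 to 86.4 elsewhere (log2 change 0.98, SE 0.15, adjusted p = 0.00228). Plxna2 was above Q20 (240.1 and 235; log2 change 1.49, SE 0.20, adjusted p = 0.00107) but not above WT, where the log2 change was -0.28. In all, 4 of 9 plexins were higher in Q92 than in Q20 and 2 lower, and the plexin sum per kb was the largest of the NPC genotypes at 131.6. The neuropilins that pair with A-type plexins were lowest there, Nrp1 at 14.9 and 16.1 and Nrp2 at 14.3 and 17.5. Unc5c (1.73 and 0.922) and Efnb2 (4.77 and 3.63) were lowest in Q92 too, with log2 changes from Q20 of -4.19 (adjusted p = 0.000282) and -2.91 (adjusted p = 0.00114). Against WT neither was called in Q92 (limma adjusted p = 0.0676 and 0.229). Summed oligodendrocyte lineage markers were 25.6 to 26.8 in Q92 and 314.0 to 338.6 in Q20 (4 of 6 lower, 1 higher), astrocyte markers 348.3 to 555.8 and 2306 to 2610 (6 of 7 lower), and fibroblast markers 7.10 to 8.58 and 247.6 to 310.1 (7 of 9 lower). Their part in these differences was not tested.

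In Q111, many values were low, and both libraries were lowest of all for 16 of 63 guidance genes (25.4%, against 10.4% of all genes) and highest for 2 (3.17%, against 12.5%). Epha4, a broad ephrin receptor and 1 of the 2 leading Eph receptors of the progenitors, had 7.55 and 11.2 scaled CPM in Q111 and 43.8 to 404 in the other libraries. WT itself was split at 404 and 89.5 and KO at 160.0 and 44.2, replicate 1 above replicate 2 in each. The fall from Q20 (91.7 and 105; log2 change -3.28, SE 0.72, adjusted p = 0.0125) was lost when any 1 of the 4 libraries was left out. Against WT the log2 change was -4.23 (adjusted p = 0.00804). Slit1 fell from Q20 to 1.22 and 1.67 (log2 change -3.37, SE 0.35, adjusted p = 0.000307) and was below WT as well (-1.33, adjusted p = 0.0376). Eph receptors gave 9 of 12 calls lower and none higher, and the Unc5 family 4 of 4 lower, among them Unc5b at 3.11 and 2.88 (log2 change -2.61).

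Sema3c was the semaphorin called higher in Q111 than in Q20, at 13.4 and 13.0 scaled CPM, above all other libraries (0.385 to 6.41). Sema3d, also of the secreted class, was highest in both Q111 libraries too but was not called against Q20. Sema3c rose over Q20 (log2 change 1.51, SE 0.26, adjusted p = 0.00417) and over WT (3.29, adjusted p = 0.000189). Nrp1 was at 49.5 and 55.0, also above Q20 (log2 change 1.21, SE 0.19, adjusted p = 0.00291) and above WT (1.22, adjusted p = 0.00593). Ntn1 stood at 262 and 256, above Q20 (log2 change 1.10, SE 0.32, adjusted p = 0.0343, lost with edgeR at 0.0615 and without Q20 1, Q111 1 or Q111 2), while WT held 285 and 194. Ntn4 was higher than in Q20 in all 3 longer lines, by 1.21, 0.98 and 1.34, and both Q20 libraries were the lowest of all at 34.4 and 44.8. The call was lost without Q20 1 or Q50 2 in Q50, and without Q20 1, Q92 1 or Q92 2 in Q92. Against WT (55.3 and 80.1) Ntn4 was not called in these lines (adjusted p = 0.342, 0.564 and 0.124). Summed astrocyte markers were 275.7 to 287.4 in Q111 and 2306 to 2610 in Q20 (5 of 7 lower), and summed fibroblast markers 3.51 to 4.05 and 247.6 to 310.1. The part of these markers in the differences was not tested.

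**Figure D4:**
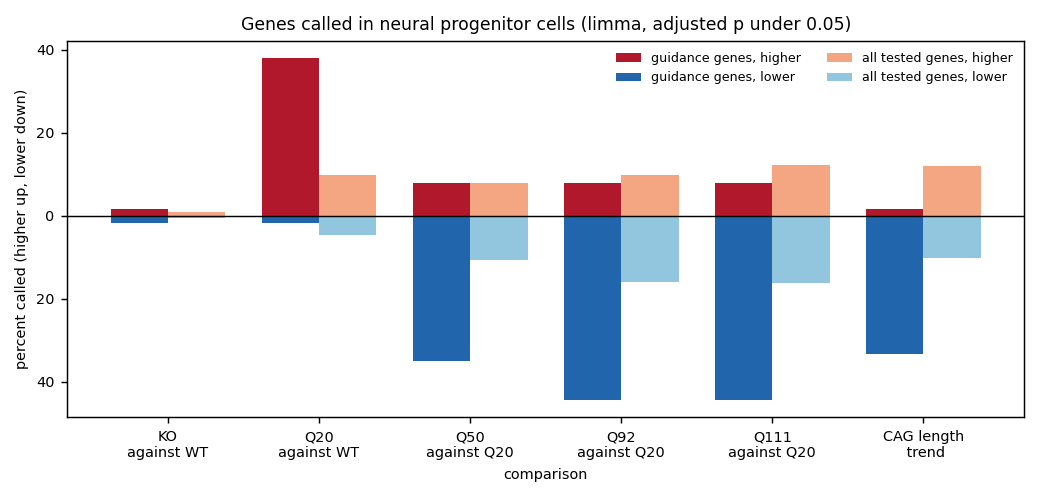
Percent of genes called higher or lower (limma, adjusted p under 0.05) in 6 NPC comparisons, for the guidance genes and for all genes tested. In Q20 against WT the guidance genes lie mostly on the higher side, with 24 of 63 higher, and in the comparisons of longer repeats with Q20 mostly on the lower side.

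Asked whether any difference existed among the 4 knock-in lines, 48 of 63 guidance genes passed in NPC, where 41% of all genes did. The 15 that did not pass included the leading ligands Sema4b and Efna4, Ephb4, Robo2 and Dcc. A slope of log2(scaled CPM + 1) on repeat length, given as the change over the 91 repeats from Q20 to Q111, was called for 22 guidance genes, 21 falling and Ntn1 rising (slope 1.32, adjusted p = 0.0288; 22% of all genes, 12% rising and 10.1% falling). The median slope was -0.92 over the guidance genes and 0.04 over all genes. By role, 15 of 32 receptors and 6 of 31 ligands fell, among them 7 of 12 Eph receptors, 4 of 4 Robo receptors and 3 of 4 Unc5 receptors. The falls include Robo3, Robo4, Epha10, Sema4a and Slit3, which passed the filter only through the Q20 libraries.

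Where the 4 line means moved one way, the falls with the smallest p were those of Plxnb1, Ephb1, Sema6b and Ephb2. Plxnb1, the receptor for Sema4d, ran from 246 and 247 scaled CPM in Q20 through 185 and 167 in Q50 and 113 and 118 in Q92 to 95.6 and 111 in Q111 (slope -1.27, SE 0.12, adjusted p = 0.000838). WT was at 257 and 131 and so spanned much of this range. Ephb1, an EphB receptor that guides retinal axons at the midline, was at 20.2 and 19.9 in Q20, 16.1 and 18.7 in Q50, 4.59 and 4.99 in Q92 and 4.08 and 4.21 in Q111 (slope -2.30, SE 0.29, adjusted p = 0.00192). Ephb2 was at 46.0 and 38.7, then 21.9 and 23.4 in Q50, 20.3 and 22.9 in Q92 and 13.3 and 12.2 in Q111 (slope -1.38, adjusted p = 0.00853). Sema6b, a membrane ligand of A-type plexins, had a slope of -2.21 (adjusted p = 0.00487).

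These slopes rest on 4 lines. With the replicate number as a block, 14 fell and 0 rose (15.3% of all genes called), and the Ntn1 call was lost (adjusted p = 0.0511). With 1 mean value per line, 0 guidance genes and 0 genes in all were called with limma, and the lowest adjusted p of the guidance genes was 0.295. Without the Q20 line, 9 guidance genes were called (14.2% of all genes, 7.85% rising and 6.38% falling), 4 rising (Epha7, Slit2, Sema3c and Ntn1) and 5 falling (Sema3f, Ephb1, Sema3b, Robo1 and Plxnb1). In that fit Plxnb1 and Ephb1 fell (slopes -1.17 and -2.88, adjusted p = 0.0151 and 0.0129), whereas Sema6b (-1.19, adjusted p = 0.063) and Ephb2 (-0.99, adjusted p = 0.171) were not called. Leaving out either library of Q20 or of Q111 lowered the count of guidance genes called. The shares of all genes called are not given here for those fits.

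In knockout progenitors few guidance genes differed from WT. Of 63, 1 was higher and 1 lower (1.42% of all genes called, 0.878% higher and 0.545% lower), and 19 had an unadjusted p under 0.05, with a median log2 change of -0.06 against 0.03 over all genes. Slit1 rose, with 30.6 and 15.8 scaled CPM in KO and 6.80 and 3.78 in WT (log2 change 1.92, SE 0.35, adjusted p = 0.0439). Epha3, named after its values were seen, fell from 3.75 and 3.98 to 1.02 and 1.43 (log2 change -1.13, SE 0.20, adjusted p = 0.035). In each case the groups did not overlap. Both calls were lost with edgeR (adjusted p = 0.0729 and 0.09) and with the replicate number as a block in limma (adjusted p = 0.0605 and 0.0583; 0 of 63 called, 1.1% of all genes). The deviations of the WT and KO replicates correlated at 0.467, the highest of the NPC pairs. The Slit1 call was lost in 8 of 12 alternatives. Leaving out 1 library moved the count from 2 to between 0 (without KO 1) and 21 (without WT 2), with 1 without WT 1 and 1 without KO 2. Neither gene separated KO from the knock-in lines: Slit1 was as high in Q92, and Epha3 was lower in Q50.

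In the stem cells no guidance gene passed in any comparison between genotypes when the genotype means alone were fitted. The counts were 0 of 60 in the libraries labelled KO against WT (0.0144% of all genes called), Q20 against WT (0.323%), Q50 (0.00719%), Q92 (0.00719%) and Q111 (0%) against Q20, any difference among knock-in lines (0.0719%) and the slope on repeat length (0%). With edgeR they were 0 as well (at most 0.0862% of all genes, in Q20 against WT). At an unadjusted p under 0.05, limma gave 0, 12, 3, 4, 1, 6 and 1 in the same order. The median log2 change of Q20 against WT was 0.20 over the guidance genes and -0.04 over all genes.

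In mESC same-numbered replicates deviated together, so the numbers were also fitted as a block, and 14 of 60 guidance genes were then called in Q20 against WT, 11 higher and 3 lower (10.6% of all genes; 5.91% higher and 4.69% lower). The other comparisons stayed at 0 with the block, where 0.115% (knockout), 0.984% (Q50), 0.46% (Q92), 0.0575% (Q111), 1.6% (any difference) and 0% (slope) of all genes were called. Sema6a, a membrane ligand of A-type plexins, had 19.2 and 8.82 scaled CPM in Q20 and 1.98 and 0.779 in WT (log2 change 2.61; limma adjusted p = 0.00656 with the block and 0.126 without). Sema3c had 25.2 and 6.74 against 2.83 and 0.779 (log2 change 2.45; 0.0102 with the block and 0.224 without). For both, Q20 lay above WT in each replicate, and the other 3 knock-in lines also lay above WT, at 3.27 to 13.3 for Sema6a and 4.07 to 19.1 for Sema3c. Epha1 and Slit3, which were high in the Q20 progenitors, were among the calls, Epha1 at 28.2 and 14.0 against 10.1 and 4.76 and Slit3 at 9.07 and 4.27 against 1.90 and 1.82 (adjusted p = 0.0237 and 0.0197 with the block). The 3 lower were Sema5b, Ephb2 and Ephb3. Summed fibroblast markers were 16.3 to 21.1 in WT, 13.47 to 17.85 in KO and 155.2 to 284.1 in Q20, in cultures grown on fibroblast feeders. These markers were above WT in the other knock-in lines too, at 98.0 to 130.3 in Q50, 127.5 to 143.6 in Q92 and 114.7 to 169.4 in Q111. Their part in these differences was not tested.

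In the stem cells more guidance genes were called between the replicate numbers than between genotypes. The replicate test set 6 libraries against 6 with genotype fitted, and the genotype tests 2 against 2. The counts therefore do not compare the sizes of these differences. Of the 60 guidance genes, 29 differed between the replicate 2 and the replicate 1 libraries of the 6 genotypes, 11 higher and 18 lower in replicate 2 (43.3% of all genes, 20.5% higher and 22.8% lower), a comparison added after the data were seen. Ntn1 had 2.31 to 16.6 scaled CPM in the replicate 1 libraries and 35.3 to 57.1 in the replicate 2 libraries, without overlap (log2 change 2.08, SE 0.36, adjusted p = 0.00283). Nrp2 had 15.0 to 51.4 and 64.9 to 145 (log2 change 1.60, SE 0.11, adjusted p = 0.000127), and Robo4 had 3.23 to 8.13 and 18.0 to 23.8 (log2 change 1.69, SE 0.18, adjusted p = 0.000415). Both neuropilins, 2 of 4 Robo receptors, Ntn1 and Dcc were on the higher side. Eph receptors (6 of 11 lower, 1 higher) and plexins (4 of 9 lower, 1 higher) were mostly on the lower side, led by Plxnd1, the receptor for Sema3e, at 3.71 to 13.0 in replicate 1 and 0.862 to 5.02 in replicate 2 (log2 change -1.31, SE 0.16, adjusted p = 0.000633). Of the 29, 27 moved the same way in all 6 genotypes, and Plxna2 and Sema3a did so in 5. In NPC the same comparison called 0 of 63 guidance genes with limma (0% of all genes), with 3 at an unadjusted p under 0.05. The labels give no batch for the replicate numbers.

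**Figure D5:**
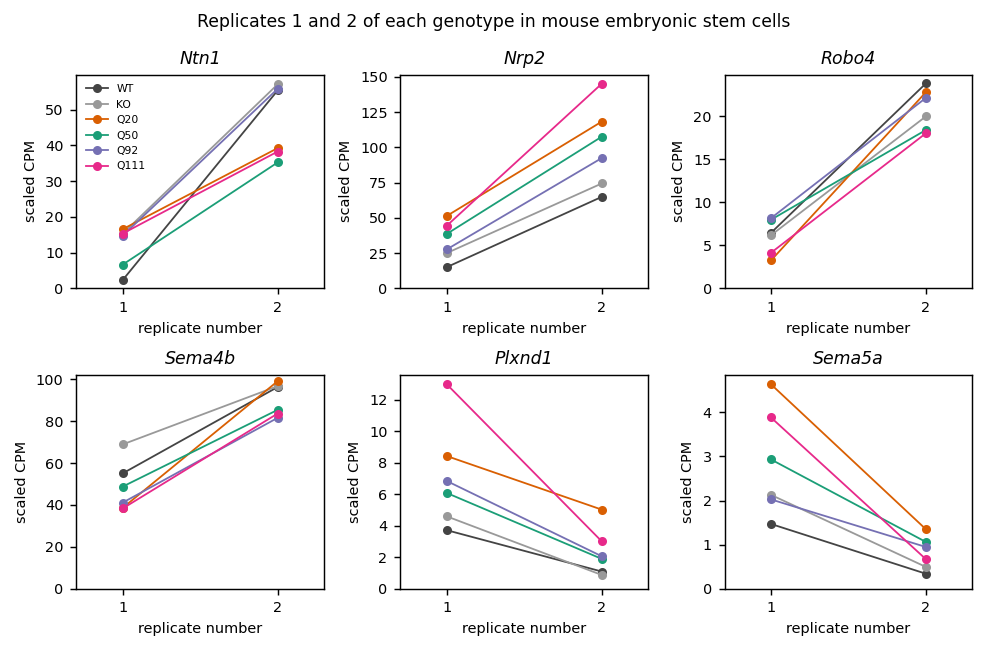
Scaled CPM (linear axis) of Ntn1, Nrp2, Robo4, Sema4b, Plxnd1 and Sema5a in the 12 mESC libraries, with a line joining replicate 1 to replicate 2 of each genotype. Ntn1, Nrp2, Robo4 and Sema4b are higher in replicate 2 in 6 of 6 genotypes, and Plxnd1 and Sema5a are lower in 6 of 6.

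Whether the slope on repeat length differed between the cell types was tested on the 12321 genes that passed the filter in both, among them 58 guidance genes. The slope was lower in NPC than in mESC for 4 (Epha4, Ephb6, Plxnb1 and Robo1) and higher for 0, where 4.86% of all genes were called (2.7% higher and 2.16% lower). The median difference was -0.65 over the guidance genes and 0.05 over all genes. In mESC, Epha4 held 63.3 and 87.2 scaled CPM in Q20 and 74.1 and 111 in Q111, Plxnb1 22.3 and 27.5 in Q20 against 25.0 and 23.6 in Q111, and Robo1 29.1 and 35.3 against 27.4 and 29.9, and the groups overlapped for each. The differences in slope were -3.24 for Epha4 (adjusted p = 0.0144) and -1.21 for Plxnb1 (adjusted p = 0.0095). With 1 mean value per line 0 guidance genes and 0 of 12321 genes in all were called. Without the Q20 line 1 of 58 guidance genes was called, and 225 of 12321 genes in all.

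Other genes of axon guidance were taken from a fixed list of 66 co-receptors, adhesion molecules and intracellular mediators, of which 61 were tested in mESC and 62 in NPC. In mESC none was called between genotypes with limma. In NPC, 12 of 62 were higher and 6 lower in Q20 than in WT (9.97% and 4.57% of all genes), 5 and 13 in Q50 against Q20 (8.05% and 10.7%), 8 and 23 in Q92 against Q20 (9.88% and 15.9%), and 10 and 20 in Q111 against Q20 (12.2% and 16.1%). In KO against WT 1 was higher and 0 lower, a share like that of all genes (1.42% called). Dscam, a cell adhesion molecule that also binds netrin, was the gene higher in KO, at 27.7 and 31.8 scaled CPM against 14.0 and 14.8 (log2 change 0.99, SE 0.17, adjusted p = 0.0344), a call lost in 6 of 12 alternatives. In Q111 against Q20 the largest rises were those of Mical2, an oxidase of the actin cytoskeleton (96.7 and 98.5 against 13.0 and 12.6; log2 change 2.84, SE 0.39, adjusted p = 0.00131), Vav3 (338 and 363 against 73.9 and 62.7; log2 change 2.35), and Chn2, a chimaerin that inactivates Rac (176 and 141 against 31.9 and 36.5; 2.18). The Chn2 call was lost when any 1 of the 4 libraries was left out. The largest falls were those of Dscaml1 (1.76 and 1.66 against 27.5 and 26.1; -3.36), Nell2, a secreted ligand of Robo3 (59.9 and 64.6 against 593 and 517; -3.13), and Dpysl5, a collapsin response mediator (0.921 and 0.992 against 13.8 and 12.6; -2.86). None of these groups overlapped. The Dscaml1 call was lost without Q20 1, Q111 1 or Q111 2, and the Nell2 call without Q20 1. With WT as the reference for Q111, the calls for Vav3, Chn2, Nell2 and Dpysl5 were lost, and those for Mical2 and Dscaml1 were kept. Nell2 and Robo3 were both higher in Q20 than in Q111, Robo3 at 10.3 and 8.22 against 0.420 and 0.298.

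The genes below the filter were Epha3, Epha6, Ephb1, Ntn4, Ntn5, Sema3d, Sema3g and Unc5d in mESC, and Ntn5, Sema3g and Sema4f in NPC. Genes whose reads overlap a gene on the other strand, such as Epha1 with Zyx, cannot be separated from it if the counting ignored strand.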

How the data were processed

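RNA-seq libraries of mESC and NPC, 2 for each of 6 Htt genotypes per cell type, were analysed from 1 table per cell type. Per the submitters' processing notes, CASAVA 1.8, STAR and build GRCm38.p6 were used; the strand setting of the counting is not given in the sources used here. The authors deposited a normalised signal per gene, CPM (read counts relative to the library total) scaled with TMM factors: recovered reads were whole numbers within 0.01, and TMM factors recomputed from them gave the deposited values within a relative deviation of 8.9e-12. The design had foreseen limma on such values and it was kept.

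limma 3.58.1 (R 4.3.3, mean-variance trend) was fitted to log2(value + 1) over all 12 libraries of a cell type, 1 mean per genotype, on all genes with at least 1 in at least 2 libraries, with Benjamini-Hochberg adjustment over all genes and calls at 0.05. Fold changes in log2 understate changes of low genes. Fold values are ratios of group means of the scaled CPM. The slope on repeat length used the 8 knock-in libraries, with 92 repeats for the third line. Alternatives were edgeR 4.0.16 quasi-likelihood tests on the recovered reads, other pseudocounts, filters and scalings, a replicate block and leaving out libraries. The script was tested on simulated data. Tables and plots were made with Python 3.11.15, pandas 2.3.3 and matplotlib 3.10.9. Exon lengths and positions are from GENCODE M21, upstream sequences from RefSeq.

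The members and lists were chosen with earlier results of these data known. Named genes are, in each comparison, the called genes whose libraries do not overlap and whose higher mean is at least 5, up to 4 rises and 4 falls of largest size, the 2 leading members of each family per kb, the slopes whose 4 line means move one way, and 3 rises and 3 falls of the pathway list in NPC KO against WT and Q111 against Q20; further members are given for their family and were picked with their values known. Same-numbered replicates share only a number in the labels: in mESC the deviations from the group means correlated at 0.25 to 0.547 in 15 of 15 pairs of genotypes, so the numbers were taken to pair the samples there, and in NPC at -0.049 to 0.467, above 0.1 in 3 of 15, so they were not.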

Additional observations from a re-analysis of the deposited data

Results flagged for a closer look

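The change with repeat length differed between the cell types for 4 of 58 guidance genes tested (6.9%), each with the lower slope in NPC over the 91 repeats. Of all 12321 genes, 4.86% were called, 2.7% higher and 2.16% lower (limma with Benjamini-Hochberg adjustment, 8 libraries per cell type). Epha4 had a slope of -2.68 in NPC and 0.56 in mESC, a difference of -3.24 (SE 0.67, adjusted p = 0.0144). Its NPC values were 91.7 and 105 scaled CPM in Q20 and 7.55 and 11.2 in Q111. Plxnb1 had slopes of -1.27 and -0.06, a difference of -1.21 (SE 0.23, adjusted p = 0.0095). Ephb6 had -1.53 and 0.21, a difference of -1.74 (SE 0.47, adjusted p = 0.0467), and Robo1 -1.15 and -0.14, a difference of -1.01 (SE 0.26, adjusted p = 0.0375). When each line was reduced to 1 mean, adjusted p values were 0.335 (Epha4), 0.308 (Plxnb1), 0.362 (Ephb6) and 0.415 (Robo1). Without the Q20 line they were 0.22, 0.317, 0.32 and 0.263. The Ephb6 call was lost in 17 of 27 alternatives, among them 13 that left out a single library and the length of 89 for the third line, and the Robo1 call in 14 of 28. Epha4 and Plxnb1 lost theirs in 2 of 28 each. No mESC slope of a guidance gene was called. The tables of the cell types were scaled separately, and only differences of slopes within each were compared.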

How the results depend on the processing

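Counts of guidance genes called moved with the filter and the reference more than with the scaling. With a mean of at least 5 required, fewer genes were tested, and the NPC counts were 0 in KO against WT, 9 in Q20 against WT, 13, 18 and 18 in Q50, Q92 and Q111 against Q20, 30 for any difference among knock-in lines and 11 for the slope, and 16 for replicate 2 against replicate 1 in mESC. The shares of all genes called with this filter are not given here, so a lower count need not be a lower share. In KO against WT, no filter, median-of-ratios scaling and the plain library total gave 1 each, and edgeR and the fit on both groups only gave 0. That fit gave 10 in Q20 against WT. With WT as the reference, 9 and 12 differed in Q50 and Q92. Epha1 then went the other way in Q50 (0.10) and Q92 (0.81), and Plxna2 in Q92 (-0.28). With 1 mean per line the slope gave 0 calls and its difference between the cell types 0, and without the Q20 line 9 and 1. The cause of these moves was not tested.

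The replicate block gave 14 calls in mESC Q20 against WT and changed no other mESC call count between genotypes. In NPC the samples share only a number, and the block gave 0 in KO against WT (1.1% of all genes called) and 14 for the slope (15.3%). It gave 26, 28, 33, 35 and 50 in Q20 against WT, Q50, Q92 and Q111 against Q20 and any difference among knock-in lines. Of all 13206 genes, 1915, 2504, 3561, 3979 and 5615 were called in the same order.

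Leaving out 1 library in turn gave 0 to 21 calls in NPC KO against WT, 16 to 28 in Q20 against WT, 17 to 20 in Q50 against Q20 (17 without Q20 1), 23 to 25 in Q92 against Q20, 20 to 27 in Q111 against Q20 (20 without Q111 2), 35 to 40 among the knock-in lines, 8 to 23 for the slope and 2 to 6 for its difference between the cell types. The last was 2 without mESC Q20 1, Q20 2, Q50 2 or Q92 1, or without either NPC library of Q20 or Q92. A lone sample is then assumed to vary like the other groups, and the shares of all genes called are not given here for these counts. In mESC these counts were 0, and Htt in KO against WT ran from -0.78 without KO 1 to 0.22 without KO 2. Of all the other settings for a count of calls 203 stayed within 1.5 times and 43 did not. Of those for a single gene 572 kept direction and call, 97 lost the call, 4 gained it and 4 turned. With 2 libraries per group, and low genes near 1 scaled CPM, small differences were not detectable.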
